A study of Mus musculus with 4 samples.

Results

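The integrin and laminin genes of the mouse were followed in RNA-seq counts from cultured cortical astrocytes with and without Npas3, a transcription factor of the bHLH-PAS family. Members were taken by gene symbol alone: protein-coding genes named Itga or Itgb with a number, Itgav, Itgam, Itgal, Itgax and Itgae, and genes named Lama, Lamb or Lamc with a number. The rule found 36 genes, 25 integrin subunits and 11 laminin chains, among 53379 genes in the count table. Of these, 34 passed the filter on low counts and were tested with 18838 genes in all. Itgax had 0 reads in every library, and Itgb6 had 17 reads in wild-type replicate 1 and 0 in the other libraries, so these 2 genes were not tested.

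Each group held 2 libraries from C57BL/6 mice, wild type or Npas3-/-. Astrocytes were isolated from cortex at postnatal day 0, grown in medium with 10% fetal bovine serum on flasks shaken daily over 7 days to detach other cells, and replated. TRIzol extraction followed at day 14 in vitro, with 500 ng of total RNA per library. The sources used here give neither how the Npas3 allele was made nor whether replicates are separate animals or cultures. The p-values therefore reflect no more than how far these libraries differ within a genotype, and that variation may be technical.

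Integrins are receptors made of 1 alpha and 1 beta subunit that bind extracellular matrix or other cells on the outside and the actin cytoskeleton, through talin and kindlin, on the inside. Laminins are trimers of an alpha, a beta and a gamma chain that form the core of basement membranes. In the brain, astrocyte endfeet rest on the laminin-containing basement membrane of blood vessels and of the brain surface, and hold it through beta 1 integrins and through dystroglycan.

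The integrins that fell in the Npas3-/- libraries had transcripts of lower GC content than the abundant integrins that did not fall. Coding sequence at the membrane-proximal hinge is printed below for some alpha subunits of each kind. These stretches encode the end of the transmembrane segment and the start of the cytoplasmic tail, 5′ to 3′ on the coding strand, from GENCODE M21 transcripts on mm10. Capitals mark the codons of the amino acids GFFKR, searched only near the end of the coding sequence and found there in 12 of the 17 alpha subunit genes. Itga7, Itga8, Itga9, Itga10 and Itga11 had no exact match in the part searched. Neither variants of the motif nor codons further upstream were searched, so what these genes hold at the hinge is not shown. The genes Itga6, Itga1, Itga2 and Itgav fell in the Npas3-/- libraries, and Itga3 and Itga5 did not pass the test.
Itga6: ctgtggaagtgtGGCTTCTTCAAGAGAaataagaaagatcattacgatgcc
Itga1: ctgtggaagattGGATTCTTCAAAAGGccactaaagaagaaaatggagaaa
Itga2: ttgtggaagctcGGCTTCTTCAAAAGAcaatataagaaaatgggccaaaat
Itgav: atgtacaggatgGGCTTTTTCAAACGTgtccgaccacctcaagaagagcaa
Itga3: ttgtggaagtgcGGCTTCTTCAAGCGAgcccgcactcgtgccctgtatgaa
Itga5: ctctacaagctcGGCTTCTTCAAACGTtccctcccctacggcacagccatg
GC content of these stretches was 41.2% in Itga6, 37.3% in both Itga1 and Itga2, 47.1% in Itgav, and 56.9% in both Itga3 and Itga5. The hinge does not separate all subunits. Among tested subunits not printed that did not pass, it was 33.3% in Itgae, 35.3% in Itga4 and 41.2% in Itgam. In Itgal and Itga2b, which also did not pass, it was 49.0% and 54.9%. Each stretch spans an exon junction of its gene, and lies at chr2:71849498-71853575 for Itga6 and chr11:95046549-95046929 for Itga3. The next pair of sequences holds the last 47 codons and the stop codon of the most abundant beta subunits. Capitals mark codons that match NPxY exactly, a motif of beta subunit tails.
Itgb1: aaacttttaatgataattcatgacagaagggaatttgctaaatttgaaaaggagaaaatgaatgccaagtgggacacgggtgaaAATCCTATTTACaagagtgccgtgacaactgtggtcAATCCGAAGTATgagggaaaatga
Itgb5: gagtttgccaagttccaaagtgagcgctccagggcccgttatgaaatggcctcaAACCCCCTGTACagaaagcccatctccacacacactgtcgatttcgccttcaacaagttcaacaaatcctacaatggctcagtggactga
The Itgb1 tail had 37.5% GC and 2 such motifs, and the Itgb5 tail had 50.0% GC and 1. Variants of the motif were not searched, so these counts do not give the number of binding sites for talin or kindlin. Itgb1 fell in the Npas3-/- libraries and Itgb5 did not pass the test.

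Facts of the whole libraries set the scale for what follows. Total counts ran from 82965565 to 86932708 per library. Npas3 itself had 5129 and 8739 reads in the wild-type libraries and 2055 and 1386 in the Npas3-/- libraries, counted over the whole gene (log2 fold change -1.82, SE 0.33, adjusted p = 0.0181; edgeR, quasi-likelihood, with p-values adjusted by Benjamini-Hochberg over all tested genes), and -0.57 (adjusted p = 0.154) in the corrected fit described next. Over all tested genes the fold change rose with the GC content of the transcript (Spearman's rho 0.67 across genes, a description), and the ratio of wild-type replicate 2 to replicate 1 fell with it (rho -0.45). Fold changes are therefore given also from a fit that removes the trend with GC content and transcript length in each library, called the corrected fit here. Without correction 35.1% of the called genes were higher in Npas3-/-, and with it 65.0%. The median log2 fold change of all tested genes was -0.07 without and 0.09 with correction. Summed astrocyte markers stood at 3079 and 3901 CPM (reads scaled to library size) in wild-type replicates 1 and 2. In Npas3-/- replicates 1 and 2 they stood at 4876 and 4879 CPM, and all 9 had reads in every library. Without correction 3 of them, Aqp4, Slc1a2 and Gja1, fell and 2, Gfap and Aldoc, rose. In the corrected fit Slc1a2 did not pass (-0.41, adjusted p = 0.415, edgeR), and Aqp4, Gja1, Gfap and Aldoc kept their calls. Markers of oligodendrocyte lineage summed to 1207 to 1678 CPM with Mog at 0 in every library. Those of meningeal fibroblasts summed to 261 to 355 CPM, and those of neurons to 73.7 to 90.1 CPM. The fibroblast sum is mostly Col1a1 and Col1a2. Of its 5 tested markers 2 fell without correction and 0 rose. These were Dcn (0.541 and 1.46 against 0.0604 and 0 CPM) and Col6a3 (6.67 and 5.28 against 1.86 and 2.35 CPM). Epithelial and ependymal markers summed to 345 and 241 CPM in wild type and 479 and 605 in Npas3-/-, mostly Foxj1, and none passed. Within the neuron list Map2 (36.4 and 45.0 against 4.43 and 1.82 CPM) and Syt1 fell without correction. Map2 also fell in the corrected fit, and Syt1 did not pass there (-1.07, adjusted p = 0.177, edgeR). Tubb3 was at 45.9 and 21.9 against 65.2 and 79.6 CPM (adjusted p = 0.0767, edgeR), and Rbfox3 and Snap25 had reads in wild type only.

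**Figure D1:**
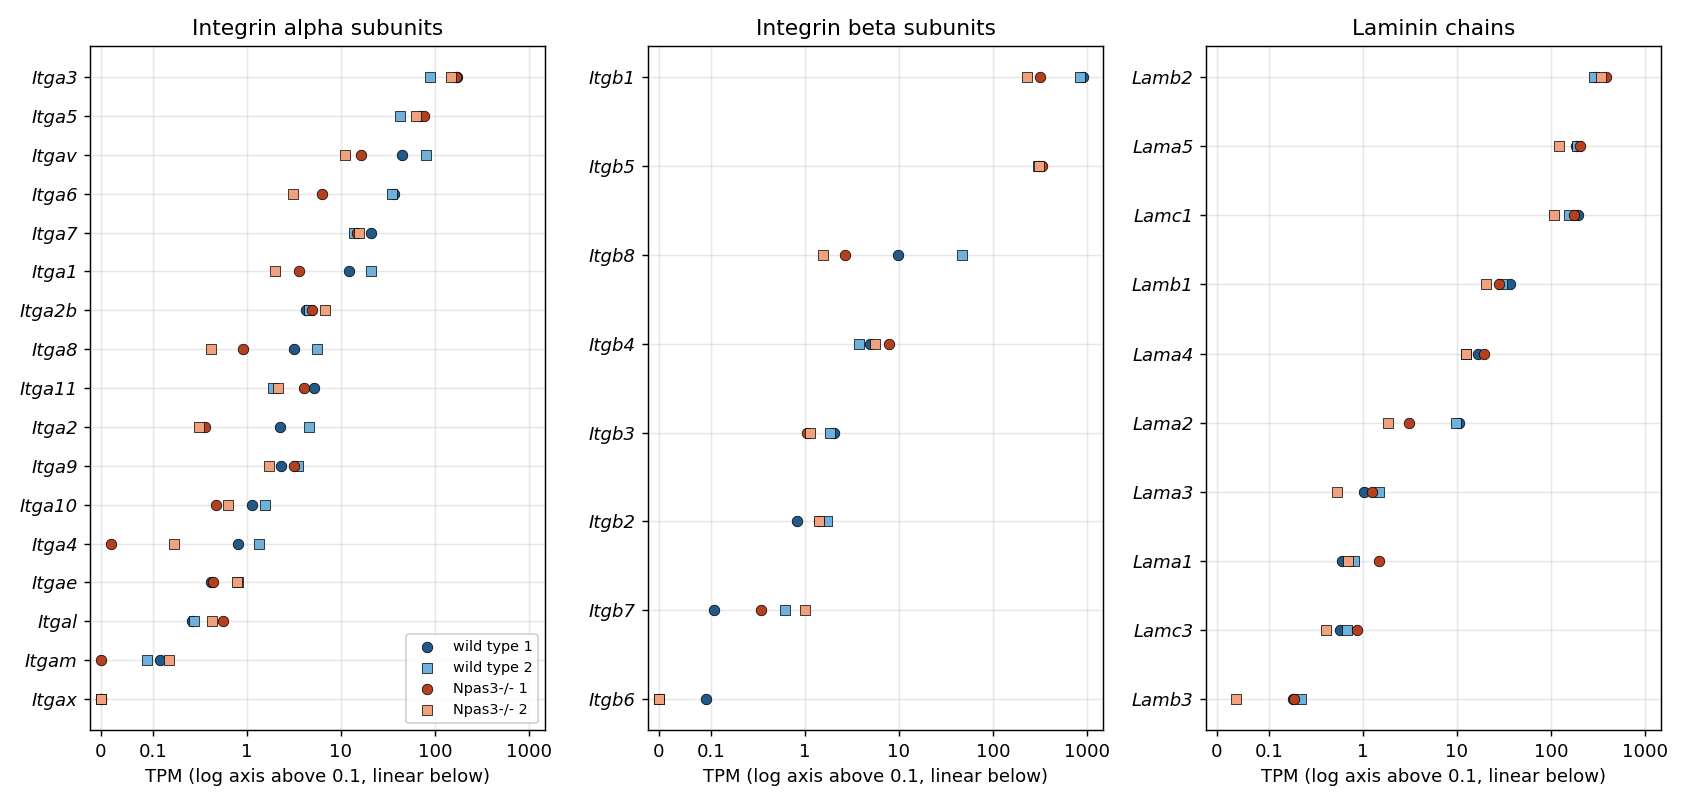
Level of integrin and laminin genes in each of the 4 libraries, in TPM (reads scaled to transcript length and library size), on an axis that is logarithmic above 0.1 and linear below. Each point is 1 library. Itgb1, Itga6, Itgav and Itga1 lie lower in both Npas3-/- libraries, and the points of Itgb5 lie on top of each other.

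Levels of different genes are compared in TPM, which divides by transcript length. Among beta subunits the wild-type cultures expressed mainly Itgb1, the partner of most alpha subunits, at 884 ± 44.0 TPM (SD, n = 2), and Itgb5, which pairs with alpha v, at 309 ± 5.89 TPM. Itgb8, another alpha v partner, was next at 28.2 ± 26.2 TPM, with 9.72 and 46.8 TPM in the 2 libraries. Among alpha subunits Itga3, a laminin receptor subunit, led at 130 ± 59.1 TPM, followed by Itgav at 62.2 ± 25.2 and Itga5, the fibronectin receptor subunit, at 56.3 ± 19.5, which do not differ beyond their spread. Itga6 followed at 35.7 ± 0.985 TPM; with the longest coding transcript as length it ranked above Itga5. Of the laminin chains, Lamb2 stood at 293 ± 3.08, Lama5 at 187 ± 1.44 and Lamc1 at 176 ± 26.8 TPM, the last of these overlapping Lama5. Lama5, Lamb2 and Lamc1 together are the chains of laminin-521. The leukocyte integrins Itgal, Itgam, Itgae and Itgax, and Itgb2 and Itgb7, each stayed at or under 1.74 TPM in every library. Of the exon bases of Itgam 68.7% are shared with the gene model Gm49368, so its counts are uncertain. Summed microglia and leukocyte markers stood at 10.7 CPM in each wild-type library and at 16.6 and 14.1 CPM in Npas3-/-. Cd68 was the largest part of that sum (6.41 and 8.42 against 6.23 and 4.71 CPM). C1qa, C1qb, C1qc, Laptm5, Fcer1g, Trem2, Tyrobp and Aif1 lay higher in both Npas3-/- libraries, and Cd68 and P2ry12 lay lower. None of the 12 tested markers passed in edgeR.

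Without correction 8 of the 34 tested members were lower in Npas3-/- (23.5%) and 1 was higher (2.94%), where 21.5% of all tested genes were lower and 11.6% higher. The share that was lower is near the background and is no result about integrins and laminins as a group. In the corrected fit 1 member was lower and 1 higher, where 3.08% of all genes were lower and 5.71% higher. The median log2 fold change of the tested members was 0.15, or 0.27 corrected, beside the values for all genes above. In CPM, 11 members had both Npas3-/- libraries below both wild-type libraries and 11 above, where 40.1% of all genes were below and 35.7% above. Without Npas3-/- replicate 2 none of these 9 members passed (adjusted p 0.0798 to 0.211, edgeR), and no gene in the table did. Without Npas3-/- replicate 1, Itgav, Itgb1, Itgb8 and Lamb2 did not pass (adjusted p 0.0512, 0.0624, 0.0661 and 0.176). In bulk RNA, fewer cells of a type and less RNA per cell cannot be told apart, and this holds for each value below.

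**Figure D2:**
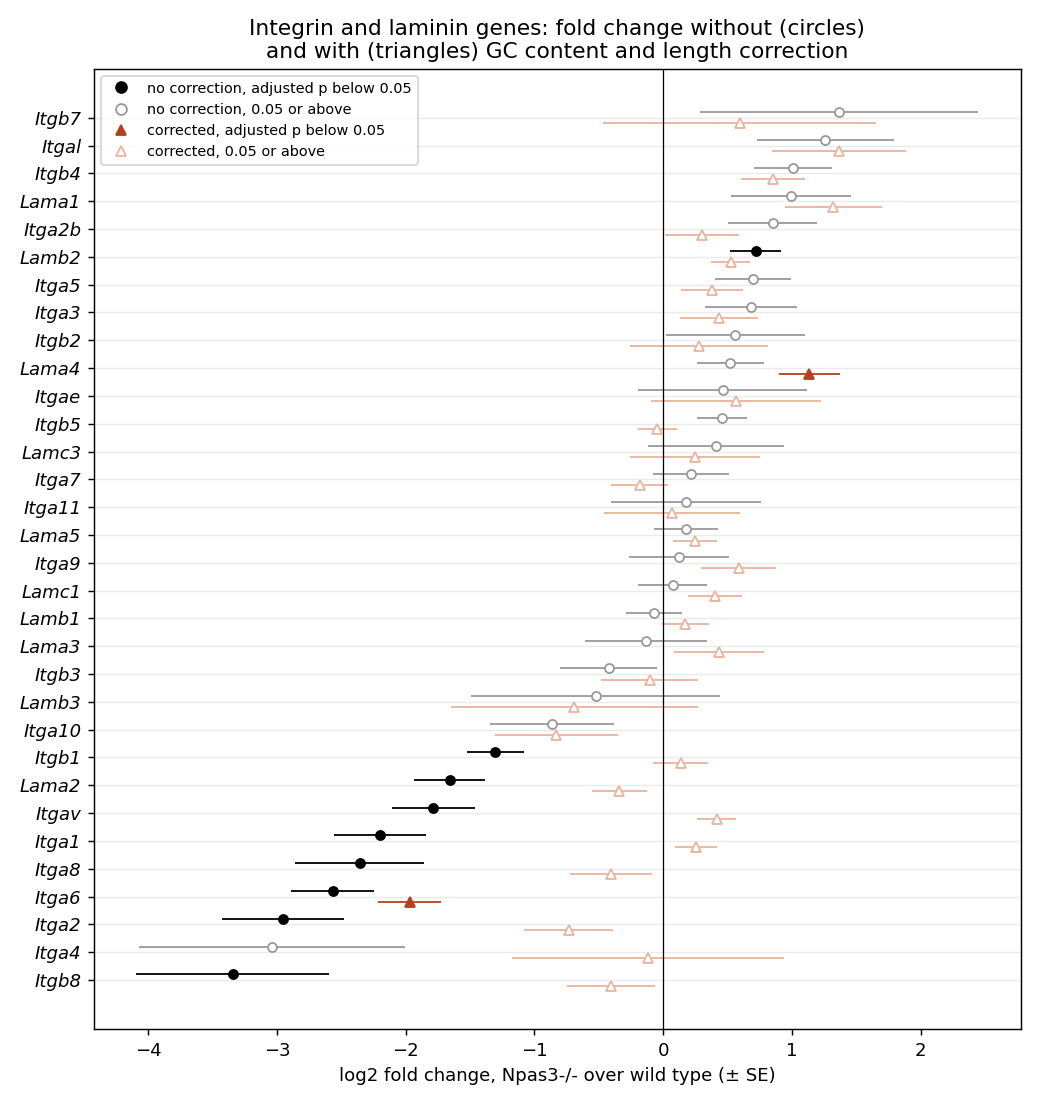
Log2 fold change of Npas3-/- over wild type for tested members, with its standard error, without (circles) and with (triangles) correction for GC content and length; filled symbols have an adjusted p below 0.05. Itgam, with 0 to 24 reads per library, is left out. Filled triangles are Itga6 and Lama4 only.

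The laminin-binding alpha subunits are Itga3, Itga6 and Itga7. Itga6, which pairs with beta 1 or beta 4, was at 98.4 and 90.6 CPM in the wild-type libraries and at 20.2 and 11.7 CPM in the Npas3-/- libraries. The genotypes do not overlap, and wild-type replicates lie close together. Its log2 fold change was -2.57 (SE 0.32, adjusted p = 0.0130, edgeR), and -1.97 (SE 0.24, adjusted p = 0.0246) in the corrected fit; relative to the median gene these are -2.50 and -2.06. Itga6 was the only member that passed in the fit with and in the fit without correction. It also passed in the 7 of 7 alternatives computed for single genes with every library, with adjusted p up to 0.0326, and in 5 of 8 fits that leave out 1 library; without Npas3-/- replicate 2 its adjusted p was 0.0798, and 0.153 corrected, and without Npas3-/- replicate 1 it was 0.104 corrected.

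Itga3, the laminin receptor subunit with the highest TPM, did not pass the test. Its level was 293 and 144 CPM in wild type and 347 and 354 CPM in Npas3-/- (log2 fold change 0.68, SE 0.36, adjusted p = 0.188, edgeR; 0.43 corrected), so both Npas3-/- libraries lie above, and wild-type replicate 2 stands far below the other 3. The value rests on that spread: it was 1.27 (adjusted p = 0.0196, edgeR) without wild-type replicate 1 and 0.24 without wild-type replicate 2. Itga7, best known from muscle, was at 50.5 and 31.9 against 42.8 and 53.1 CPM, and the genotypes overlap. The ratio of Itga3 to Itga6 TPM was 4.71 and 2.51 in wild type and 27.1 and 47.9 in Npas3-/-. Wild-type replicate 2 also stands apart in summed mural cell markers, at 397 CPM against 1475 in wild-type replicate 1 and 1680 and 1740 in Npas3-/-. That sum is mostly Acta2 (1243, 270.2, 1334 and 1359 CPM) and Cnn1, contractile genes; Pdgfrb (32.3 to 37.8 CPM) and Cspg4 (48.9 to 66.6 CPM) do not set that library apart, and Rgs5 was highest in it (3.82 and 11.5 against 0.386 and 0.312 CPM) and fell in Npas3-/-. Many members were, like Itga3, lowest in CPM in that library, among them Itga5, Itga7, Itga11, Itgb4, Itgb5, Lama4 and Lamb2. The part of these markers in those values was not tested.

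Of the 4 collagen-binding alpha subunits, Itga1 and Itga2 fell without correction. Itga1 was at 68.5 and 111 CPM in wild type and 23.9 and 15.3 in Npas3-/- (log2 fold change -2.20, SE 0.36, adjusted p = 0.0159, edgeR). Itga2 was at 4.85 and 9.40 CPM in wild type and 0.917 and 0.922 in Npas3-/- (-2.95, SE 0.47, adjusted p = 0.0157). Neither pair of groups overlaps, and both genes are highest in wild-type replicate 2. In the corrected fit Itga1 turned to 0.26 (adjusted p = 0.344) and Itga2 stood at -0.73 (adjusted p = 0.218). Itga10, at 0.881 to 2.29 CPM, and Itga11, at 2.76 to 7.89 CPM, did not pass in either fit; 33.5% of the exon bases of Itga10 are shared with the gene model Gm42957, so its counts are uncertain.

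The alpha subunits that read the RGD sequence of fibronectin, vitronectin and latent TGF-beta split. Itgav was at 143 and 246 CPM in wild type and 63.0 and 50.0 in Npas3-/- (log2 fold change -1.78, SE 0.32, adjusted p = 0.0184, edgeR). Itga8 was at 6.95 and 11.9 against 2.41 and 1.26 CPM (-2.36, SE 0.50, adjusted p = 0.0250). Both fell with no overlap, but in the corrected fit Itgav turned to 0.41 (adjusted p = 0.137) and Itga8 stood at -0.41 (adjusted p = 0.438). Itga5 did not pass: it had 103 and 60.1 CPM in wild type and 136 and 129 CPM in Npas3-/- (0.70, SE 0.30, adjusted p = 0.121; 0.38 corrected), and 1.12 (adjusted p = 0.0303) without wild-type replicate 1 but 0.34 without wild-type replicate 2. The TPM ratio of Itga5 to Itgav was 1.58 and 0.531 in wild type and 4.69 and 5.63 in Npas3-/-. Itga2b, the platelet subunit, was at 6.94 and 7.10 against 9.72 and 15.6 CPM (0.85, adjusted p = 0.108; 0.30 corrected). Of the alpha 4 and alpha 9 subunits, which bind VCAM-1, fibronectin and tenascin, Itga4 had 300 and 506 reads in wild type and 8 and 75 in Npas3-/- (-3.04, SE 1.04, adjusted p = 0.0712), and -0.12 corrected. Itga4 did pass with the replicate block (-3.68, adjusted p = 0.0451), with limma-voom (adjusted p = 0.0417) and with DESeq2 (adjusted p = 0.00544). Itga9, at 5.33 to 8.70 CPM, overlapped.

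Among beta subunits, Itgb1 was at 1119 and 997 CPM in wild type and 466 and 390.3 CPM in Npas3-/-. The libraries of each genotype lie close together and the genotypes do not overlap. Itgb1 fell by 1.30 on the log2 scale (SE 0.22, adjusted p = 0.0167, edgeR), and turned to 0.13 (adjusted p = 0.712) in the corrected fit. Itgb8, which with alpha v releases active TGF-beta, was at 32.2 and 148 CPM in wild type and 10.5 and 7.21 in Npas3-/- (-3.34, SE 0.75, adjusted p = 0.0277; -0.40 and adjusted p = 0.475 corrected). Its wild-type libraries are far apart, and leaving out replicate 2 of wild type gave -1.87. Itgb8 passed in 3 of the 7 alternatives computed for single genes with every library. It did not pass with limma-voom, the replicate block or either corrected alternative. Itgb5 was at 333 and 310 CPM in wild type and 423 and 460 in Npas3-/- (0.46, SE 0.19, adjusted p = 0.121), and -0.04 corrected. Itgb4, the alpha 6 partner of hemidesmosomes, was at 10.3 and 7.57 against 19.8 and 16.2 CPM (1.01, SE 0.30, adjusted p = 0.0526; 0.85 and 0.0830 corrected), and passed with DESeq2 size factors (adjusted p = 0.0484), limma-voom (0.0454) and DESeq2 (0.00807). Itgb3, at 2.21 to 3.56 CPM, did not pass.

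**Figure D3:**
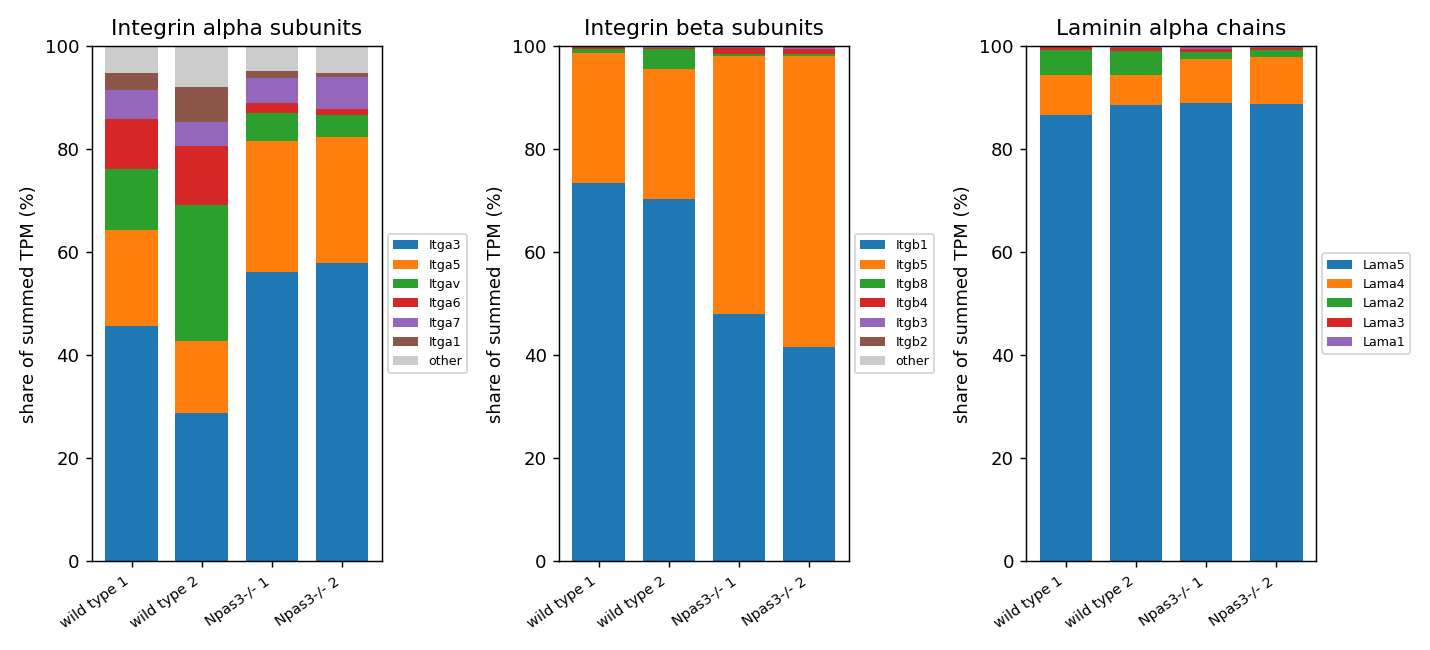
Share of each gene in the summed TPM of integrin alpha subunits, integrin beta subunits and laminin alpha chains, in percent, 1 bar per library. Itgb1 makes up 73.5% and 70.4% of beta subunit TPM in wild type and 48.0% and 41.7% in Npas3-/-, while Lama5 holds 86.6% to 88.9% of laminin alpha TPM.

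The makeup of the beta subunit pool followed. The TPM ratio of Itgb1 to Itgb5 was 2.92 and 2.80 in wild type and 0.960 and 0.739 in Npas3-/-, so the order of the 2 genes differs between genotypes. The share of Itgb5 in beta subunit TPM was 25.1% in each wild-type library and 50.0% and 56.4% in Npas3-/-. In TPM, Itgb5 itself was at 313, 305, 331 and 310, with the genotypes overlapping. In the alpha pool Itga3 held 45.7% and 28.9% in wild type and 56.1% and 57.8% in Npas3-/-. These shares rest on the uncorrected counts and carry the trend with GC content.

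Of the 5 laminin alpha chains, Lama2, the chain of laminin-211 in muscle and brain vessels, fell. It was at 51.8 and 45.3 CPM in wild type and 18.1 and 12.6 in Npas3-/- (log2 fold change -1.66, SE 0.27, adjusted p = 0.0162, edgeR), with no overlap, and at -0.34 (adjusted p = 0.340) corrected. Lama4, a vessel chain, was at 59.8 and 43.2 CPM in wild type and 84.3 and 63.6 in Npas3-/-, where the lower Npas3-/- library lies just above the higher wild-type one (0.52, SE 0.26, adjusted p = 0.172). In the corrected fit Lama4 rose, with 1.13 (SE 0.24, adjusted p = 0.0446), or 0.59 uncorrected and 1.05 corrected relative to the median gene; of 8 fits that leave out 1 library 1 passed, the corrected one without wild-type replicate 1. Lama5 was at 635 and 614 against 831 and 583 CPM, and the genotypes overlap. Lama1 was at 1.72 and 2.24 against 5.13 and 2.77 CPM (0.99, adjusted p = 0.149; corrected 1.32, adjusted p = 0.0797), and Lama3, at 2.38 to 4.80 CPM, overlapped. Endothelial markers summed to 15.0 and 12.6 CPM in wild type and 17.3 and 12.03 in Npas3-/-, mostly Kdr (3.54 to 6.25 CPM) and Flt1 (5.03 to 6.42 CPM), which overlap between genotypes. Tek had 36 and 49 reads in wild type and 0 in Npas3-/-, Cdh5 had 52 reads in wild-type replicate 1 alone, and Pecam1 was at 1.79 and 2.25 against 4.35 and 1.97 CPM.

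Lamb2, the beta chain of synaptic and vascular laminins, was at 537 and 506 CPM in wild type and 851 and 868 in Npas3-/-, and each genotype lies close together. It rose by 0.72 on the log2 scale (SE 0.20, adjusted p = 0.0434, edgeR), and stood at 0.53 (adjusted p = 0.0822) in the corrected fit and 0.72 (adjusted p = 0.121) with the replicate number as a block. Lamb2 passed in none of the 4 fits that leave out 1 library (adjusted p 0.0623 to 0.211). Lamb1 was at 108 and 86.6 against 100.5 and 84.7 CPM, so that the TPM ratio of Lamb2 to Lamb1 was 8.11 and 9.53 in wild type and 13.8 and 16.7 in Npas3-/-. Lamc1, the common gamma chain, was at 483 and 373 against 529 and 372 CPM and overlapped. Lamb3 and Lamc3, at 0.104 to 1.90 CPM, overlapped.

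**Figure D4:**
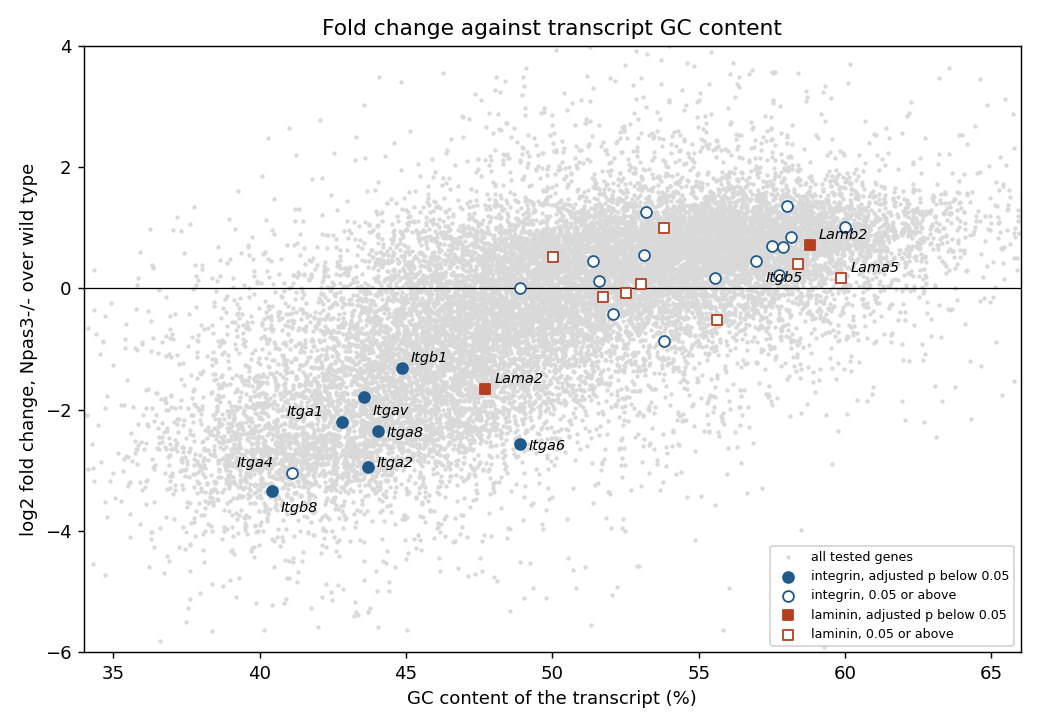
Log2 fold change without correction against the GC content of the transcript in percent, for all tested genes in grey, integrins as circles and laminins as squares; filled symbols have an adjusted p below 0.05. Points outside the axes are not drawn. The members that fell lie between 40.4% and 48.9% GC on the falling side of the cloud of all genes.

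Choosing members that fell also favours low GC content, because fold change followed GC content over all tested genes. The 8 members that fell were compared with the others on transcript features. Their transcripts held 40.4% to 48.9% GC, with a median of 43.9%, and GC at the third codon position was 41.1% to 52.2%. The 9 members with at least 10 TPM that did not fall held 50.0% to 59.9%, median 57.5%, and 54.8% to 70.5% at the third codon position. Over all 26 tested members that did not fall, most of them low, the ranges overlap those of the 8: 41.1% to 60.0% GC with a median of 53.8%, and 47.5% to 73.1% at the third codon position. The 3′ untranslated regions of the 8 had a median of 2943.5 bases (210 to 6994) those of the 9 a median of 428 bases (110 to 2551), and those of the 26 a median of 516 bases (110 to 6508). Across tested members Spearman's rho of fold change with transcript GC was 0.75, with 0.87 in the 23 integrins and 0.35 in the 11 laminins, beside 0.67 over all genes. After correction it was 0.26 in the members and 0.03 over all genes. The wild-type libraries also differ with GC content: rho of the ratio of replicate 2 to replicate 1 with GC was -0.37 in the members. By family this rho was -0.51 in the integrins and, the other way, 0.34 in the laminins. For the ratio of Npas3-/- replicate 1 to replicate 2, rho was -0.12 in the members and -0.28 over all genes. These correlations are descriptions across genes that share 4 libraries. Whether the trend comes from the genotype or from the libraries cannot be told apart.

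Genes that work with integrins and laminins were counted for comparison. Of 40 tested cytoplasmic partners 9 fell (22.5%, beside 21.5% of all genes) and 4 rose (10.0%, beside 11.6%), so that the list is near the background. In the corrected fit 3 fell (7.50%, beside 3.08%) and 0 rose (beside 5.71%), and the median log2 fold change was 0.08 uncorrected, beside -0.07 for all genes. Fermt2, the kindlin of adherent cells, was at 141 and 175 CPM in wild type and 42.8 and 36.5 in Npas3-/- (log2 fold change -1.99, adjusted p = 0.0130, edgeR; -0.86 and 0.0346 corrected). Ptk2, focal adhesion kinase, was at 78.2 and 84.2 against 22.9 and 20.0 CPM (-1.92, adjusted p = 0.0130; -1.04 and 0.0260 corrected). Crk, an adaptor of adhesion signalling, was at 131 and 151 against 25.5 and 16.1 CPM (-2.76, adjusted p = 0.0130; -1.03 and 0.0420 corrected). These 3 genes, named for their small p-values, passed in both fits. Actn4, the actin crosslinker with the highest TPM of the list, was at 1010 and 662 against 1311 and 1134 CPM (0.55, adjusted p = 0.177; 0.26 corrected; 0.87 and 0.0456 without wild-type replicate 1).

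Of 32 tested basement membrane partners and other laminin receptors 7 fell (21.9%, beside 21.5% of all genes) and 8 rose, which is above the 11.6% of all genes, and 1 and 3 did in the corrected fit (3.12% and 9.38%, beside 3.08% and 5.71%), with a median of 0.23 uncorrected. Dmd, which links dystroglycan to actin, was at 73.2 and 129.7 CPM in wild type and 15.0 and 18.6 in Npas3-/- (-2.60, adjusted p = 0.0130, edgeR), and turned to 0.23 corrected. Dtna, a partner of dystrophin, was at 86.6 and 112 against 25.6 and 19.3 CPM (-2.15, adjusted p = 0.0130; -0.61 and 0.0616 corrected). Sdc2, a syndecan, was at 153 and 188 against 68.2 and 57.8 CPM (-1.44, adjusted p = 0.0142) and turned to 0.53 corrected. Sparc, a secreted collagen-binding protein, was at 2559 and 2114 against 3676 and 3610.4 CPM (0.64, adjusted p = 0.0821; 0.32 corrected), and passed with DESeq2 (adjusted p = 0.02004) and without wild-type replicate 1 (0.0358).

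Of 40 genes for other integrin ligands 34 were tested, and 8 fell (23.5%, beside 21.5% of all genes) and 5 rose (14.7%, beside 11.6%), or 2 and 3 corrected (5.88% and 8.82%, beside 3.08% and 5.71%), with a median of 0.03 uncorrected. Jam2, a junction protein, was at 141 and 184 CPM in wild type and 29.2 and 22.6 in Npas3-/- (-2.65, adjusted p = 0.0130, edgeR; -1.29 and 0.0246 corrected). Mfge8, a bridging protein that alpha v integrins bind, was at 162 and 142 against 339.5 and 396 CPM (1.28, adjusted p = 0.0158; 0.51 and 0.0825 corrected). Ccn3 was at 22.6 and 20.3 against 6.96 and 7.44 CPM (-1.57, adjusted p = 0.0164; -0.27 and 0.525 corrected). Ccn1, which had the highest mean TPM of the list, was at 870.4 and 529 against 1297 and 1294 CPM (0.89, adjusted p = 0.0670; 0.47 corrected), and passed with DESeq2 (adjusted p = 0.0143) and without wild-type replicate 1 (0.0139).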

How the data were processed

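RNA-seq gene counts of 2 wild-type and 2 Npas3-/- astrocyte libraries were used. Per the submitters' processing notes, the authors used Trimmomatic 0.3.8, HISAT2 2.1.0 and featureCounts with mm10; the deposited values are raw counts per gene, and the sources used here do not give strand settings. Of 53379 identifiers 53274 matched GENCODE M21. Members were chosen by symbol, and members and lists were chosen with earlier results of these data known. Values of 1 gene are counted in the totals and not reported here.

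Counts were scaled by TMM, filtered with filterByExpr (minimum count 10) and tested with edgeR 4.0.16 in R 4.3.3 (quasi-likelihood test, 2 residual degrees of freedom, Benjamini-Hochberg over 18838 genes, threshold 0.05). The corrected fit added offsets from splines (6 degrees of freedom each) on transcript GC content and log length, fitted per library to log2 CPM with prior count 2. CPM use TMM-scaled totals; TPM use the union of exons and unscaled totals. Alternatives were DESeq2 1.42.0 and its size factors, limma-voom 3.58.1, no filter, a replicate block and leaving out each library. The fits were tested on simulated data. Values in every library are given for members past the threshold or with at least 10 TPM on average in either genotype, and for the 3 genes with the smallest p and the most abundant gene of each list.

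Labels give both genotypes replicates 1 and 2 without saying that a number marks a shared litter or batch. Libraries held 82965565 to 86932708 counts; for genes with few reads, counting error can exceed the spread between libraries.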

Additional observations from a re-analysis of the deposited data

How the results depend on the processing

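With 2 libraries a group, residual degrees of freedom are few and no group is large enough for an outlier test. Without correction the members that were lower numbered 7 to 9 under the alternatives that keep every library. Members that were higher numbered 2 with DESeq2 size factors, DESeq2, limma-voom or the crossed block, and 0 without the filter or with the replicate block. Over all genes, 1018 were higher without the filter (median log2 fold change -0.28) and 3524 with DESeq2.

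Labels share replicate numbers, but replicate 1 deviations of the genotypes correlated at -0.16 over 18838 genes. The replicate block gave 2246 lower and 314 higher genes, 0 higher cytoplasmic partners, 0 higher basement membrane genes, and 5 lower and 1 higher ligands; it also ended the calls of Itga8 (adjusted p = 0.0536), Itgb8 (0.0514) and Lamb2 (0.121) and gained that of Itga4 (0.0451), by edgeR. The crossed replicate block, chosen after seeing the data, gave 3336 higher genes and 8 higher ligands. Without the filter there was 1 higher cytoplasmic partner, 3 higher basement membrane genes and 4 lower ligands, and DESeq2 gave 9 higher ligands.

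With the correction for GC content and length, 580 genes were lower and 1076 higher, and 1 member was lower. Of the lists, 3 cytoplasmic partners were lower and 0 higher, 1 basement membrane gene was lower and 3 higher, and 2 ligands were lower and 3 higher. With the replicate block and the correction together, 367 genes were lower and 772 higher, 1 member was lower, 2 cytoplasmic partners were lower and 0 higher, 1 basement membrane gene was lower and 2 higher, and 3 ligands were lower and 2 higher. Log2 fold changes changed sign in the corrected fit, without and with the block, for Itga1 (0.26 and 0.26), Itgav (0.41 and 0.41), Itgb1 (0.13 and 0.16), Itgb5 (-0.045 and -0.044), Itga7 (-0.18 and -0.17), Lama3 (0.43 and 0.41), Lamb1 (0.17 and 0.18), Dmd (0.23 and 0.15) and Sdc2 (0.53 and 0.55). Itgam, with few reads, was at -0.0068 without the filter, -1.91 with limma-voom, -1.35 with the replicate block and -0.65 with block and correction. The cause of these moves was not tested.

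Leaving out each library in turn, with and without correction, gave 0 to 8 lower and 0 to 3 higher members, and 0 to 3827 lower and 0 to 2005 higher genes. It gave 0 to 9 lower and 0 to 8 higher cytoplasmic partners, 0 to 8 lower and 0 to 9 higher basement membrane genes, and 0 to 8 lower and 0 to 7 higher ligands. Counts were 0 without Npas3-/- replicate 2, where 5728 genes and 11 members had an unadjusted p below 0.05 by edgeR, and, corrected, also without Npas3-/- replicate 1; the other tools were not run on these subsets. The lone library was assumed to vary like the other genotype. Fold changes that changed sign spanned -0.40 to 1.11 for Itga11, -0.091 to 0.57 for Itga7, -0.24 to 0.42 for Itga9, -0.17 to 0.96 for Itgae, -6.78 to 1.00 for Itgam, -0.73 to 0.29 for Lama3, -0.10 to 0.42 for Lama5, -0.24 to 0.077 for Lamb1, -1.89 to 0.17 for Lamb3, -0.21 to 0.31 for Lamc1 and -0.093 to 0.78 for Lamc3, none of them called with all 4 libraries.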
